A study of Mus musculus with 4 samples.

Results

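Cholesterol synthesis, uptake and sensing was followed through 30 genes in mouse liver. They comprise 20 enzymes in pathway order from acetyl-CoA to cholesterol, 5 genes of sterol sensing and receptor turnover, and 5 of sterol transport. They and the further lists below were chosen by name, with earlier results of these data known. Counts set beside the share of all genes therefore describe the lists and do not test them. All 30 were found by Entrez number among the 17543 genes of the tables, and all 30 had enough reads to be tested, with 12837 genes tested in all. Sequenced were 2 C57BL/6 liver samples labelled Ezh2(K307R/K307R), a point mutation on both copies of the gene for the H3K27 methyltransferase Ezh2, and 2 C57BL/6 liver samples labelled WT. The labels give the same strain and tissue for both groups, and neither sex, age, feeding state nor hour of collection. Nothing in them ties replicate 1 and replicate 2 to separate animals, so each p-value sets the genotypes against a spread that may be technical. Whole liver was sequenced, so fewer cells of a type and less RNA per cell cannot be told apart. The comparison asks how transcript levels differ between the genotypes.

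The libraries held between 18602928 and 20044832 estimated reads. Ezh2 itself had 3.45 and 2.56 CPM in the mutant livers, against 3.36 and 3.93 CPM in the WT livers, which says nothing of the labels since the mutation need not alter transcript level and gene counts do not resolve bases. The X-linked RNA Xist, a mark of female cells, had 327 and 573 CPM in the mutant livers, against 0.347 and 0.284 CPM in the WT livers, and the Y-linked gene Ddx3y had 0 and 0 CPM in the mutant livers, against 67.6 and 52.4 CPM in the WT livers. The clock gene Arntl had 12.3 and 23.7 CPM in the mutant livers, against 1.10 and 1.18 CPM in the WT livers, and Per2, which peaks around dusk in mouse liver, had 14.3 and 8.80 CPM in the mutant livers, against 45.0 and 45.5 CPM in the WT livers. Sex-chromosome pattern, clock state and genotype went together in all 4 livers and cannot be told apart in any result that follows. Hepatocyte markers (Alb, Ttr, Apoa1, Cyp2e1 and Cps1) summed to 121900 and 125600 CPM in the mutant livers, against 128800 and 129000 CPM in the WT livers, as the tissue label says. Most of each sum was Alb, at 98489 and 102760 CPM in the mutant livers, against 101891 and 105307 CPM in the WT livers. Cyp2e1 was above both WT livers in both mutant livers, Ttr and Apoa1 were below them, and Alb and Cps1 overlapped. Of all genes tested, 25.2% lay above and 23.4% below in that way.

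Liver cells make cholesterol from acetyl-CoA through mevalonate, isoprenoid diphosphates, squalene and lanosterol. When sterols are low, the escort protein SCAP carries the transcription factor SREBP2 from the endoplasmic reticulum to the Golgi, where it is cleaved and released to raise transcription of the pathway's enzymes. When sterols are high, INSIG proteins hold SCAP back. Liver also exports surplus sterol into bile through the transporter that ABCG5 and ABCG8 form together, and lysosomes return sterol taken up with lipoproteins through NPC1 and NPC2.

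Of the 30 genes, 1 fell in the mutant livers and 0 rose (edgeR, quasi-likelihood F test, threshold of 0.05 on p adjusted by Benjamini-Hochberg over all genes tested). Across all genes tested 1.47% were called lower and 1.39% higher (2.86% in either direction), so a count of 1 in 30 is near the background. The gene that fell was Lss, the lanosterol synthase. At an unadjusted p under 0.05, 10 of the 30 were higher and 2 lower, where 8.5% and 8.31% of all genes were. DESeq2 called 3 members higher, Hmgcs1, Msmo1 and Srebf2, against 2.94% of all genes, and 2 lower, Lss and Abcg5, against 3.01%. limma-voom called 0 higher and 1 lower, with backgrounds of 1.19% and 1.11%. Both mutant livers lay above both WT livers for 13 members and below them for 6, where 25.2% and 23.4% of all genes did so (48.6% in either direction). The median log2 fold change of the members was 0.08, beside 0.01 for all genes tested, and 17 members had a positive and 13 a negative value. The 20 enzymes together took 3778 and 3464 CPM (counts per 1000000 after TMM scaling) in the mutant livers, against 3343 and 3354 CPM in the WT livers. Per transcript length they summed to 1706 and 1505 FPKM in the mutant livers, against 1333 and 1550 FPKM in the WT livers. On that scale the genotypes overlapped.

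**Figure D1:**
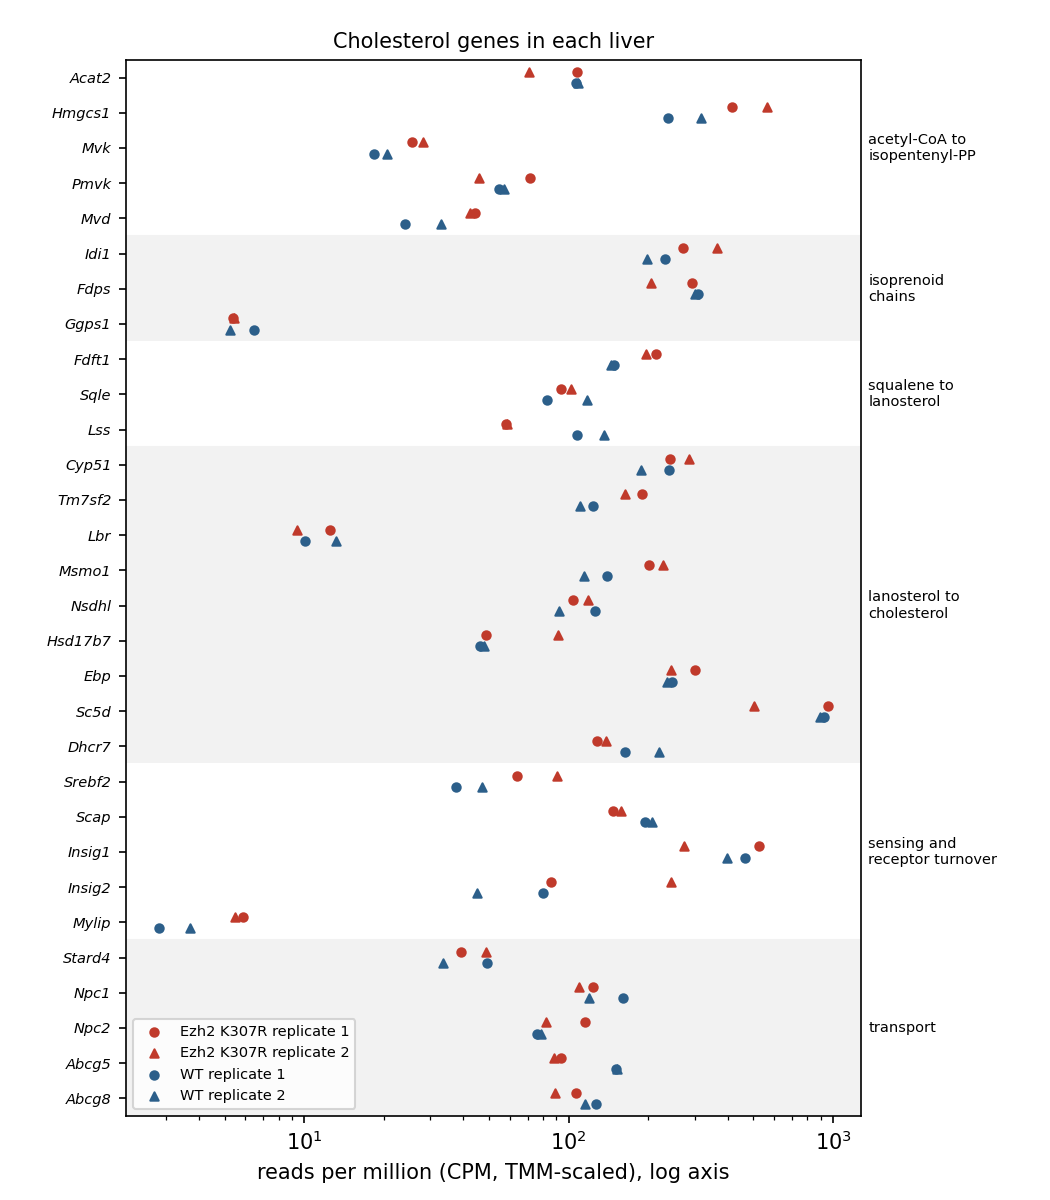
Level of each of the 30 genes in each liver, in CPM on a log axis, in pathway order from top to bottom; red symbols are the Ezh2 K307R livers and blue symbols the WT livers, circles replicate 1 and triangles replicate 2. The 2 red points of Lss lie at 58.0 and 58.4 CPM, left of the blue ones at 107 and 137 CPM.

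The first steps build mevalonate and turn it into isopentenyl diphosphate. Hmgcs1, the cytosolic HMG-CoA synthase that condenses acetyl-CoA with acetoacetyl-CoA, had 416 and 563 CPM in the mutant livers, against 237 and 317 CPM in the WT livers. Both mutant livers lay above both WT livers, with a log2 fold change of 0.82 ± 0.27 SE, adjusted p = 0.171 in edgeR. RefSeq's promoter windows on GRCm38.p6 covered 25 of the members, and Fdps, Fdft1, Sqle, Npc1 and Stard4 had none and were not searched. Each window has 300 bases, from 250 bases before the annotated start to 50 after it. SREBP sites were searched as exact matches to the string TCACNCCAC, so sites with other letters would be missed. Among the members with a window, only Hmgcs1 held a match to this motif. The window is shown for that reason (chr13:119690101-119690400, plus strand), with this motif, 4 CCAAT boxes and 3 GC boxes in capitals.

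Hmgcs1: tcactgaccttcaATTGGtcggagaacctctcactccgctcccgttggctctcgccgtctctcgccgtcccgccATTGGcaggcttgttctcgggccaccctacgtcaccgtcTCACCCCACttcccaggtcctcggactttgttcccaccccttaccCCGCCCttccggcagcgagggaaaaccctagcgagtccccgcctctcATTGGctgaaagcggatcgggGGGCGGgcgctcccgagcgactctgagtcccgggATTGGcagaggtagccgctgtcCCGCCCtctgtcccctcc

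Mvd, which decarboxylates mevalonate diphosphate, had 44.4 and 42.5 CPM in the mutant livers, against 24.0 and 32.9 CPM in the WT livers (log2 fold change 0.61 ± 0.21 SE, adjusted p = 0.203 in edgeR). Mvk, the mevalonate kinase, had 25.5 and 28.1 CPM in the mutant livers, against 18.3 and 20.6 CPM in the WT livers (log2 fold change 0.46 ± 0.19 SE, adjusted p = 0.280 in edgeR). Like Hmgcs1, neither gene overlapped between the genotypes and neither passed the adjusted threshold. Mvk stands head to head with Mmab, a cobalamin adenosyltransferase, with 190 bases between the annotated genes. Mmab had 41.5 and 47.4 CPM in the mutant livers, against 30.1 and 32.0 CPM in the WT livers (log2 fold change 0.52, adjusted p = 0.215 in edgeR), so both sides of the shared region were higher in both mutant livers without passing the test. That region lies in Mvk's window (chr5:114444019-114444318, plus strand), which held 5 CCAAT boxes and 2 GC boxes, in capitals here.

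Mvk: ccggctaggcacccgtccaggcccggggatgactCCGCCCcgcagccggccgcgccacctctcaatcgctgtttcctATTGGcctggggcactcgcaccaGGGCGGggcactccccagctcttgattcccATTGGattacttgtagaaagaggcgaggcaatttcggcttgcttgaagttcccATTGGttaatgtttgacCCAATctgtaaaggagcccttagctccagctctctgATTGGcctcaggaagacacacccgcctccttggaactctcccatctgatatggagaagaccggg

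Not every early step was displaced in this way. Pmvk, the phosphomevalonate kinase between Mvk and Mvd, had 71.4 and 45.7 CPM in the mutant livers, against 54.6 and 56.8 CPM in the WT livers, so the WT livers lay between the mutant ones (log2 fold change 0.07 ± 0.24 SE, adjusted p = 0.916 in edgeR). Acat2, the cytosolic acetoacetyl-CoA thiolase, had 108 and 71.0 CPM in the mutant livers, against 107 and 109 CPM in the WT livers (log2 fold change -0.27 ± 0.24 SE, adjusted p = 0.621 in edgeR), with overlap. RSEM divides reads between Acat2 and its close mouse copy Acat3, so each is uncertain alone, and together they had 329.9 and 264 CPM in the mutant livers, against 241 and 245 CPM in the WT livers. Of the 5 genes up to Mvd, 3 were above WT in both mutant livers and 0 below, where 25.2% and 23.4% of all genes were. The same 3 were higher at an unadjusted p under 0.05, where 8.5% of all genes were, and edgeR called 0, while DESeq2 called Hmgcs1.

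Among the isoprenoid enzymes, Idi1, which isomerises isopentenyl diphosphate, had 271 and 365 CPM in the mutant livers, against 231 and 198 CPM in the WT livers. Its mutant livers lay above both WT livers, at a log2 fold change of 0.57 ± 0.24 SE, adjusted p = 0.293 in edgeR. Fdps, the farnesyl diphosphate synthase that joins these units, had 292 and 206 CPM in the mutant livers, against 309 and 300.2 CPM in the WT livers, with mutant replicate 1 just below the WT livers and replicate 2 further below (log2 fold change -0.29 ± 0.25 SE, adjusted p = 0.617 in edgeR). Ggps1, which makes the geranylgeranyl group for protein prenylation off the sterol branch, was a low transcript at 5.36 and 5.42 CPM in the mutant livers, against 6.48 and 5.25 CPM in the WT livers. Its log2 fold change was -0.12 ± 0.26 SE, adjusted p = 0.868 in edgeR, with overlapping livers.

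Farnesyl diphosphate is committed to sterols by Fdft1, the squalene synthase. Fdft1 had 214 and 196 CPM in the mutant livers, against 149 and 145 CPM in the WT livers, a log2 fold change of 0.48 ± 0.20 SE, adjusted p = 0.286 in edgeR without overlap. Its gene shares 774 bases of locus with the abundant protease gene Ctsb, which had 850.3 and 671 CPM in the mutant livers, against 593 and 577 CPM in the WT livers, and whether counting used strand is not known here. Sqle, the squalene epoxidase that follows, had 93.8 and 102 CPM in the mutant livers, against 83.2 and 118 CPM in the WT livers. The mutant values of Sqle lay inside the WT range, and its 95% interval of the log2 fold change ran from -0.55 to 0.48.

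Lss closes the epoxide into lanosterol, the first sterol of the pathway. It had 58.0 and 58.4 CPM in the mutant livers, against 107 and 137 CPM in the WT livers. The mutant livers were almost equal, below both WT livers, and the WT livers themselves differed. The means were 58.2 ± 0.230 CPM in the mutant livers and 122 ± 20.8 CPM in the WT livers (SD, n = 2 each), with a log2 fold change of -1.07 ± 0.20 SE, adjusted p = 0.0382 in edgeR. This is the call that passed with all 4 livers. It did not pass without mutant replicate 1 (edgeR adjusted p = 0.107), mutant replicate 2 (0.114) or WT replicate 2 (0.0773), while the log2 fold change stayed between -1.23 and -0.89 over the livers left out. Lss shares 11269 bases of locus with the RIKEN gene 4930483K19Rik, which had 0 and 1 reads in the mutant livers, against 0 and 3 reads in the WT livers. The Lss window is shown because Lss carries the called difference (chr10:76531355-76531654, plus strand). It held 1 CCAAT box and 2 GC boxes, in capitals, and no match to TCACNCCAC or the E-box CACGTG.

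Lss: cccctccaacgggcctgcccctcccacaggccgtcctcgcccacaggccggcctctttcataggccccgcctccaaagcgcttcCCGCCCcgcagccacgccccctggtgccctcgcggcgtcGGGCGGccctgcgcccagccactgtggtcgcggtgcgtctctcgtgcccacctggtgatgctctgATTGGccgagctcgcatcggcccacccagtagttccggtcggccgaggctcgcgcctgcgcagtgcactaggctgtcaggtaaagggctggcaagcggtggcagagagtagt

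From lanosterol, 9 genes carry the remaining demethylations, reductions and isomerisations. Of these, 0 were called by edgeR, against 2.86% of all genes tested, and 0 by limma-voom, against 1.19% higher and 1.11% lower. DESeq2 called 1 higher, where 2.94% of all genes were called higher and 3.01% lower. At an unadjusted p under 0.05 in edgeR there were 2, both higher. Of all genes, 16.8% were at that p in either direction and 8.5% higher, so these counts say little about the 9 genes. Msmo1, the C4-methylsterol oxidase, had 201 and 227 CPM in the mutant livers, against 139 and 114 CPM in the WT livers. Its log2 fold change of 0.76 ± 0.22 SE, adjusted p = 0.124 in edgeR was the one DESeq2 called higher in this stretch (adjusted p = 0.0296). Tm7sf2, a C14-sterol reductase, had 189 and 163 CPM in the mutant livers, against 124 and 111 CPM in the WT livers (log2 fold change 0.58 ± 0.21 SE, adjusted p = 0.205 in edgeR). Lbr, the lamin B receptor that carries the same reductase activity in the nuclear envelope, was at 12.5 and 9.41 CPM in the mutant livers, against 10.1 and 13.2 CPM in the WT livers (log2 fold change -0.09 ± 0.25 SE, adjusted p = 0.899 in edgeR). Tm7sf2 was thus without overlap, while the livers overlapped for Lbr. Per transcript length, Tm7sf2 averaged 121 ± 9.98 FPKM in mutant and 76.5 ± 2.76 FPKM in WT livers (SD, n = 2 each), and Lbr averaged 3.12 ± 0.566 FPKM in mutant and 3.18 ± 0.962 FPKM in WT livers.

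Cyp51, the lanosterol demethylase, had 243 and 286 CPM in the mutant livers, against 239 and 188 CPM in the WT livers (log2 fold change 0.31 ± 0.23 SE, adjusted p = 0.572 in edgeR). Its lower mutant liver and higher WT liver were almost level. Hsd17b7, a 3-ketosteroid reductase of the C4 demethylation, had 48.7 and 90.8 CPM in the mutant livers, against 46.1 and 47.9 CPM in the WT livers. Here mutant replicate 2 stood apart, and without it the log2 fold change was 0.05, against 0.57 ± 0.29 SE, adjusted p = 0.376 in edgeR with all livers. Nsdhl and Ebp, the sterol dehydrogenase and the sterol isomerase, both lie on the X chromosome. Nsdhl had 104 and 118 CPM in the mutant livers, against 126 and 91.9 CPM in the WT livers (log2 fold change 0.03 ± 0.22 SE, adjusted p = 0.970 in edgeR). Ebp had 299 and 244 CPM in the mutant livers, against 245 and 236 CPM in the WT livers (log2 fold change 0.18 ± 0.22 SE, adjusted p = 0.757 in edgeR). Both overlapped between the genotypes.

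The last desaturation and reduction had lower central values in the mutant livers. Sc5d, the lathosterol desaturase, had 954 and 504 CPM in the mutant livers, against 922 and 896 CPM in the WT livers, so that mutant replicate 1 lay with the WT livers and replicate 2 well below. Its log2 fold change was -0.32 ± 0.33 SE, adjusted p = 0.693 in edgeR, and 0.07 without mutant replicate 2. Dhcr7, which reduces 7-dehydrocholesterol to cholesterol, had 128 and 138 CPM in the mutant livers, against 164 and 219 CPM in the WT livers. Both mutant livers lay below both WT livers, with a log2 fold change of -0.52 ± 0.23 SE, adjusted p = 0.297 in edgeR.

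**Figure D2:**
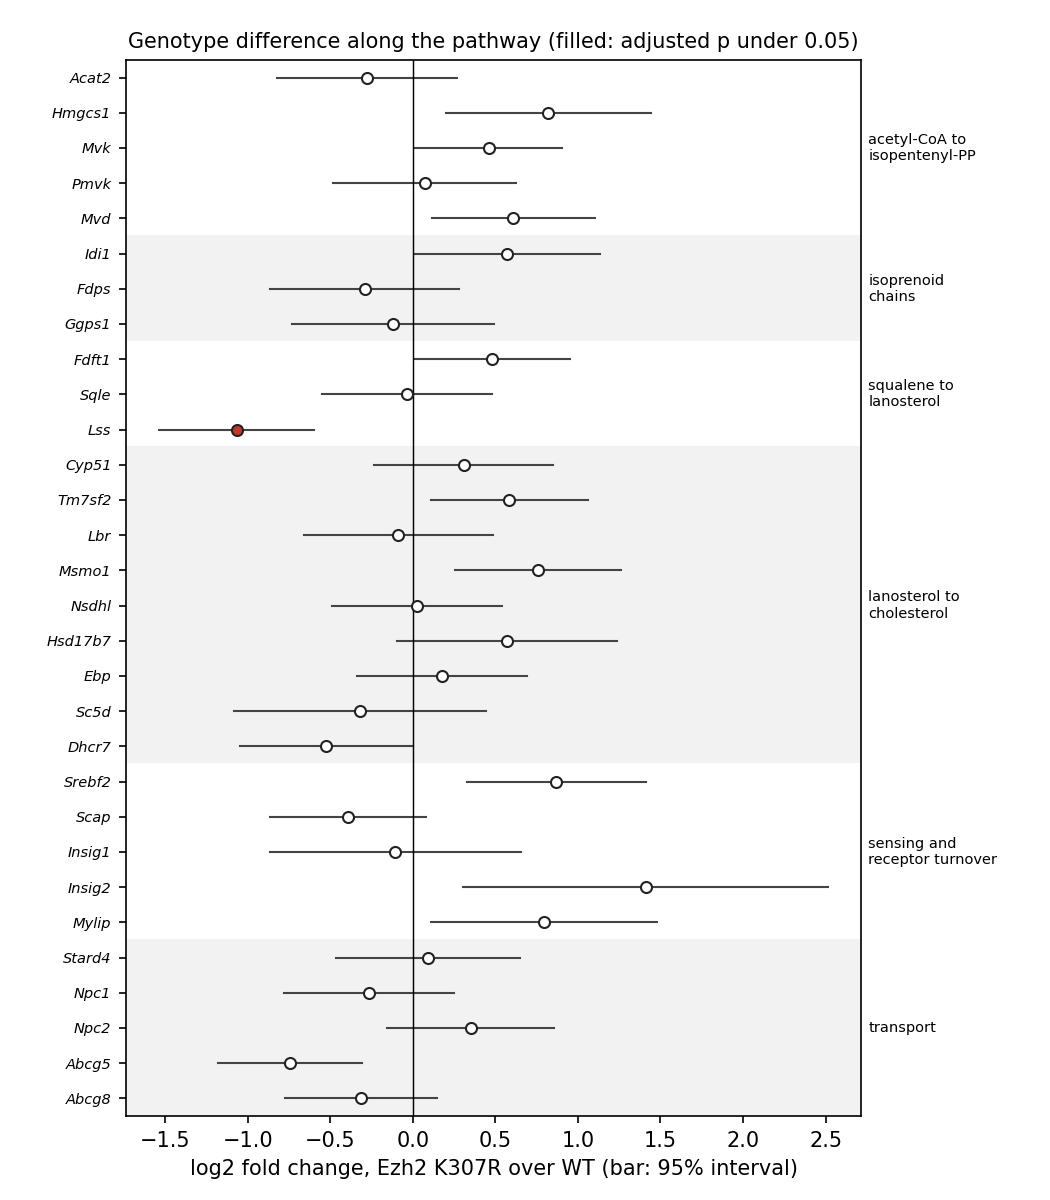
Log2 fold change of each gene, Ezh2 K307R over WT, by edgeR in pathway order, with bars for the 95% interval; the filled point is the gene past the adjusted threshold. Lss at -1.07 is the filled point, and the largest positive value is Insig2 at 1.41, with an interval from 0.31 to 2.51.

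The sensing genes did not share a direction. Srebf2, which encodes SREBP2 and is among its targets, had 63.7 and 90.5 CPM in the mutant livers, against 37.5 and 47.0 CPM in the WT livers. Both mutant livers lay above both WT livers, with a log2 fold change of 0.87 ± 0.23 SE, adjusted p = 0.106 in edgeR, past the threshold in DESeq2 (adjusted p = 0.0320) and in edgeR with no filter on low counts (0.0405). Scap, its escort, had 148 and 158 CPM in the mutant livers, against 194 and 207 CPM in the WT livers, on the lower side without overlap (log2 fold change -0.39 ± 0.20 SE, adjusted p = 0.390 in edgeR). Mylip, also called IDOL, is a ubiquitin ligase that degrades lipoprotein receptors and is induced by the oxysterol receptors LXR. It was low, at 5.89 and 5.47 CPM in the mutant livers, against 2.84 and 3.69 CPM in the WT livers, with a log2 fold change of 0.79 ± 0.29 SE, adjusted p = 0.228 in edgeR.

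The INSIG genes differed in how the mutant livers behaved. Insig1, a target of SREBP2, had 527 and 273 CPM in the mutant livers, against 465 and 397 CPM in the WT livers. Insig2, known for a separate liver transcript that is lowered by insulin and for daily rhythm in mouse liver, had 85.9 and 245 CPM in the mutant livers, against 79.7 and 44.9 CPM in the WT livers. Mutant replicate 1 was the higher liver for Insig1 and the lower mutant liver for Insig2, where it stood just above WT replicate 1. Mutant replicate 2 had the lowest Insig1 and the highest Insig2 of the 4. Per length, Insig1 exceeded Insig2 by 5.7-fold in mutant replicate 1 and 1.04-fold in mutant replicate 2, against 5.42-fold and 8.26-fold in WT replicates 1 and 2. The log2 fold change was -0.11 ± 0.33 SE, adjusted p = 0.910 in edgeR for Insig1 and 1.41 ± 0.48 SE, adjusted p = 0.187 in edgeR for Insig2. Without mutant replicate 2 that of Insig2 was 0.47 (edgeR adjusted p = 0.683), and without mutant replicate 1 it was 1.98 (adjusted p = 0.0189). It was 1.88 (adjusted p = 0.0344) without WT replicate 1 and 1.05 (adjusted p = 0.287) without WT replicate 2. With no filter on low counts the edgeR adjusted p was 0.0379. The part of the clock difference in these values was not tested.

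**Figure D3:**
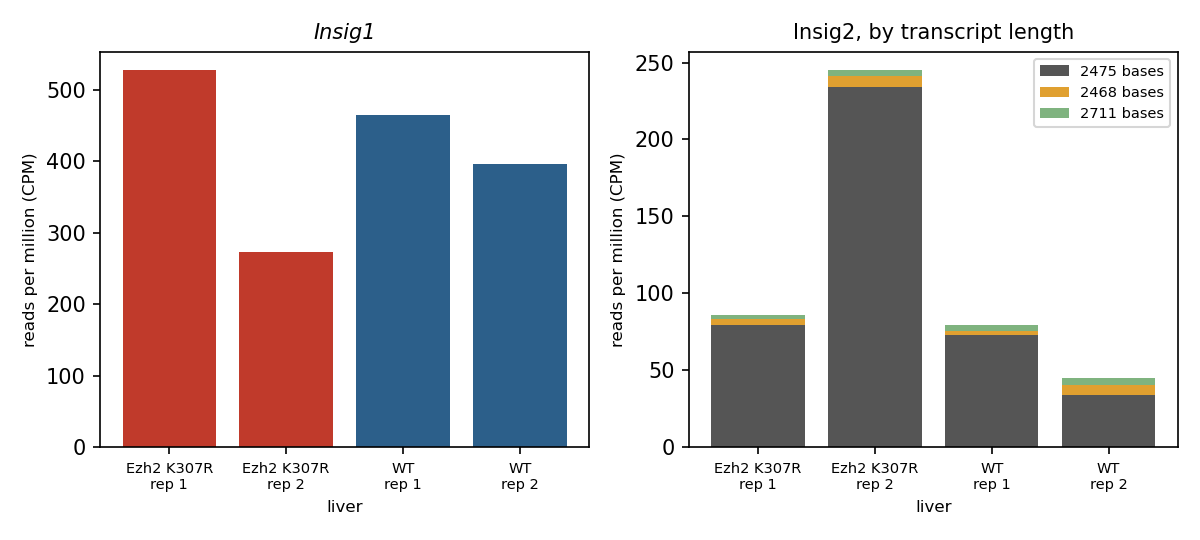
Left, CPM of Insig1 in each liver; right, CPM of Insig2 stacked by RefSeq transcript, named by length in bases, with the Ezh2 K307R livers left of the WT livers. In mutant replicate 2 the 2475-base transcript of Insig2 reaches 234 CPM, against 33.8 to 79.7 CPM in the other livers, and Insig1 is lowest, at 273 CPM.

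Insig2 has 3 RefSeq transcripts in the tables, each with its own start. The 2475-base transcript had 79.7 and 234 CPM in the mutant livers, against 73.0 and 33.8 CPM in the WT livers. The 2468-base transcript had 3.44 and 7.03 CPM in the mutant livers, against 2.78 and 6.55 CPM in the WT livers. The 2711-base transcript had 2.76 and 3.98 CPM in the mutant livers, against 3.91 and 4.5 CPM in the WT livers. The difference between the livers was thus carried by the 2475-base transcript, whose start at 121332589 of chromosome 1 (GENCODE M21, GRCm38) lies upstream of the other two, at 121328024 and 121327678. Transcript counts are RSEM's division of shared reads and were not tested. The windows of the 3 starts are shown to set that start beside the others, all on the minus strand of chromosome 1, with CCAAT boxes, GC boxes, SREBP motifs and E-boxes in capitals. They span chr1:121332540-121332839 for the 2475-base, chr1:121327975-121328274 for the 2711-base and chr1:121327629-121327928 for the 2468-base transcript.

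Insig2, 2475 bases: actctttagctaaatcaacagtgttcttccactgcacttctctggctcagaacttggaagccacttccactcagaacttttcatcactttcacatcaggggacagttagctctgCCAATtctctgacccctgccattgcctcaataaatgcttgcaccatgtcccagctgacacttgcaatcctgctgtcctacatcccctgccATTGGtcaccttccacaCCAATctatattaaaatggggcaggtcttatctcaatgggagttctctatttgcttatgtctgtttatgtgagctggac

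Insig2, 2711 bases: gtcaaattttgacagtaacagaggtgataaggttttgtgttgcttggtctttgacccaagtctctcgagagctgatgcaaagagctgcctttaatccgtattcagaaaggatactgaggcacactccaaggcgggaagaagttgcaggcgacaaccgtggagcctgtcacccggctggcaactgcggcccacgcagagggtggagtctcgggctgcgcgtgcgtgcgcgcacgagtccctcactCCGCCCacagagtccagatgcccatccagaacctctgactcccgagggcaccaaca

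Insig2, 2468 bases: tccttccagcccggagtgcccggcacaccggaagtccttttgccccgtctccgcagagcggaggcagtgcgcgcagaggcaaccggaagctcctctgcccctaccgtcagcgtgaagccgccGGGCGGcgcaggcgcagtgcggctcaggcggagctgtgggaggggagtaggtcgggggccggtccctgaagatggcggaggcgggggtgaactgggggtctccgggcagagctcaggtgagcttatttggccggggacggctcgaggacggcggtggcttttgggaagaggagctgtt

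The window of the 2475-base transcript held 3 CCAAT boxes and no GC box, and the other two held 1 GC box each and no CCAAT box. None of the 3 held an exact match to TCACNCCAC or to the E-box CACGTG.

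Among the transport genes, Abcg5 had 93.2 and 88.2 CPM in the mutant livers, against 151 and 152 CPM in the WT livers. Both mutant livers were below both WT livers, and the livers of each genotype were close to each other. The log2 fold change was -0.74 ± 0.19 SE, adjusted p = 0.0899 in edgeR, the smallest adjusted p of the members after Lss, and DESeq2 placed it past the threshold (adjusted p = 0.0151). Its partner Abcg8 had 107 and 88.5 CPM in the mutant livers, against 127 and 115 CPM in the WT livers, also below WT without overlap but with a smaller log2 fold change of -0.31 ± 0.20 SE, adjusted p = 0.492 in edgeR. Per length the ratio of Abcg5 to Abcg8 was 1.29 and 1.48 in the mutant livers, against 1.74 and 1.94 in the WT livers.

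The pair shares a promoter region, since the start of Abcg5 and that of the 3684-base Abcg8 transcript stand 110 bases apart on opposite strands. The 3684-base Abcg8 transcript from that start had 53.2 and 54.5 CPM in the mutant livers, against 57.8 and 55.4 CPM in the WT livers. The 3432-base transcript, whose start lies 6709 bases away inside the Abcg5 locus, had 52.4 and 29.9 CPM in the mutant livers, against 63.0 and 50.3 CPM in the WT livers. The third, a 3048-base non-coding transcript, had 1.15 and 4.04 CPM in the mutant livers, against 6.68 and 9.51 CPM in the WT livers. Reads of overlapping stretches of the 2 genes cannot be assigned by strand here. The Abcg8 window (chr17:84682871-84683170, plus strand) is shown because it contains both starts, with 2 CCAAT boxes in capitals.

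Abcg8: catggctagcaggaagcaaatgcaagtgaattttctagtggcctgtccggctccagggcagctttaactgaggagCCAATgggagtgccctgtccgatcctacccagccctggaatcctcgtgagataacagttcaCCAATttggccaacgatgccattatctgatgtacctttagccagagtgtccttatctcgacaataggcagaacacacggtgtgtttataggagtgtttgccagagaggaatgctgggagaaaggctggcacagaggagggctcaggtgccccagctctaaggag

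Of the lysosomal pair, Npc1, the membrane transporter, had 124 and 109.9 CPM in the mutant livers, against 161 and 119.9 CPM in the WT livers (log2 fold change -0.26 ± 0.22 SE, adjusted p = 0.612 in edgeR). Npc2, the soluble carrier that hands sterol to it, had 115 and 82.4 CPM in the mutant livers, against 76.3 and 78.9 CPM in the WT livers. Npc1, whose locus shares 8982 bases with Rmc1, overlapped between the genotypes, and Npc2 did not (log2 fold change 0.35 ± 0.22 SE, adjusted p = 0.480 in edgeR). Stard4, a cytosolic sterol carrier, had 39.1 and 48.9 CPM in the mutant livers, against 49.1 and 33.4 CPM in the WT livers, with overlap and a 95% interval of the log2 fold change from -0.46 to 0.65. Npc2 is made by many cell types. Beside it, 7 Kupffer cell markers summed to 370.3 and 250.4 CPM in the mutant livers, against 198 and 226 CPM in the WT livers, and 5 stellate cell markers to 259 and 200 CPM in the mutant livers, against 83.2 and 118 CPM in the WT livers. Of these 12 markers, 1 passed the test, the stellate cell gene Dcn (183 and 135 CPM in the mutant livers, against 52.4 and 71.6 CPM in the WT livers, log2 fold change 1.36 ± 0.25 SE, adjusted p = 0.0348 in edgeR). All 12 had a positive log2 fold change, as did 6558 of the 12837 genes tested. At an unadjusted p under 0.05 in edgeR, 4 Kupffer cell and 3 stellate cell markers were higher and 0 of either list lower. Sinusoidal endothelial markers (5 genes) summed to 73.6 and 83.1 CPM in the mutant livers, against 47.1 and 66.0 CPM in the WT livers. The 2 erythroid markers summed to 300.3 and 346 CPM in the mutant livers, against 141 and 240.5 CPM in the WT livers. Both lists had higher sums in the mutant livers, with 0 genes called by edgeR in either. At an unadjusted p under 0.05, 2 endothelial markers were higher and 1, Lyve1, was lower (3.40 and 2.61 CPM in the mutant livers, against 3.41 and 10.8 CPM in the WT livers), and 2 erythroid markers were higher. Of all genes tested, 2.86% passed the adjusted threshold in edgeR, and 8.5% were higher and 8.31% lower at the unadjusted one. Bile duct markers (4 genes) summed to 6.74 and 11.4 CPM in the mutant livers, against 5.96 and 7.38 CPM in the WT livers. Lymphocyte markers (4 genes) summed to 4.62 and 2.56 CPM in the mutant livers, against 2.89 and 4.02 CPM in the WT livers, and neutrophil markers (2 genes) to 4.46 and 0.818 CPM in the mutant livers, against 1.10 and 1.04 CPM in the WT livers. These 3 sums were low and overlapped between the genotypes. Their part in the values of Npc2, Mylip or any other member was not tested.

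The livers of a genotype differed from each other by more than 1.5-fold for 6 members in the mutants and 1 in the WT, where 17.9% and 21.2% of all genes tested differed as much. In the mutants these were Acat2, Pmvk, Sc5d and Insig1, higher in replicate 1, and Hsd17b7 and Insig2, higher in replicate 2. In the WT it was Insig2, at 79.7 CPM in replicate 1 and 44.9 CPM in replicate 2. The largest ratio was that of Insig2 in the mutants, 2.85-fold, and the ratios of Insig1 and Sc5d there were 1.93-fold and 1.89-fold the other way. The enzymes other than Sc5d summed to 2824 and 2960 CPM in the mutant livers, against 2420.5 and 2458 CPM in the WT livers, so the order of the mutant livers turned round without Sc5d.

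**Figure D4:**
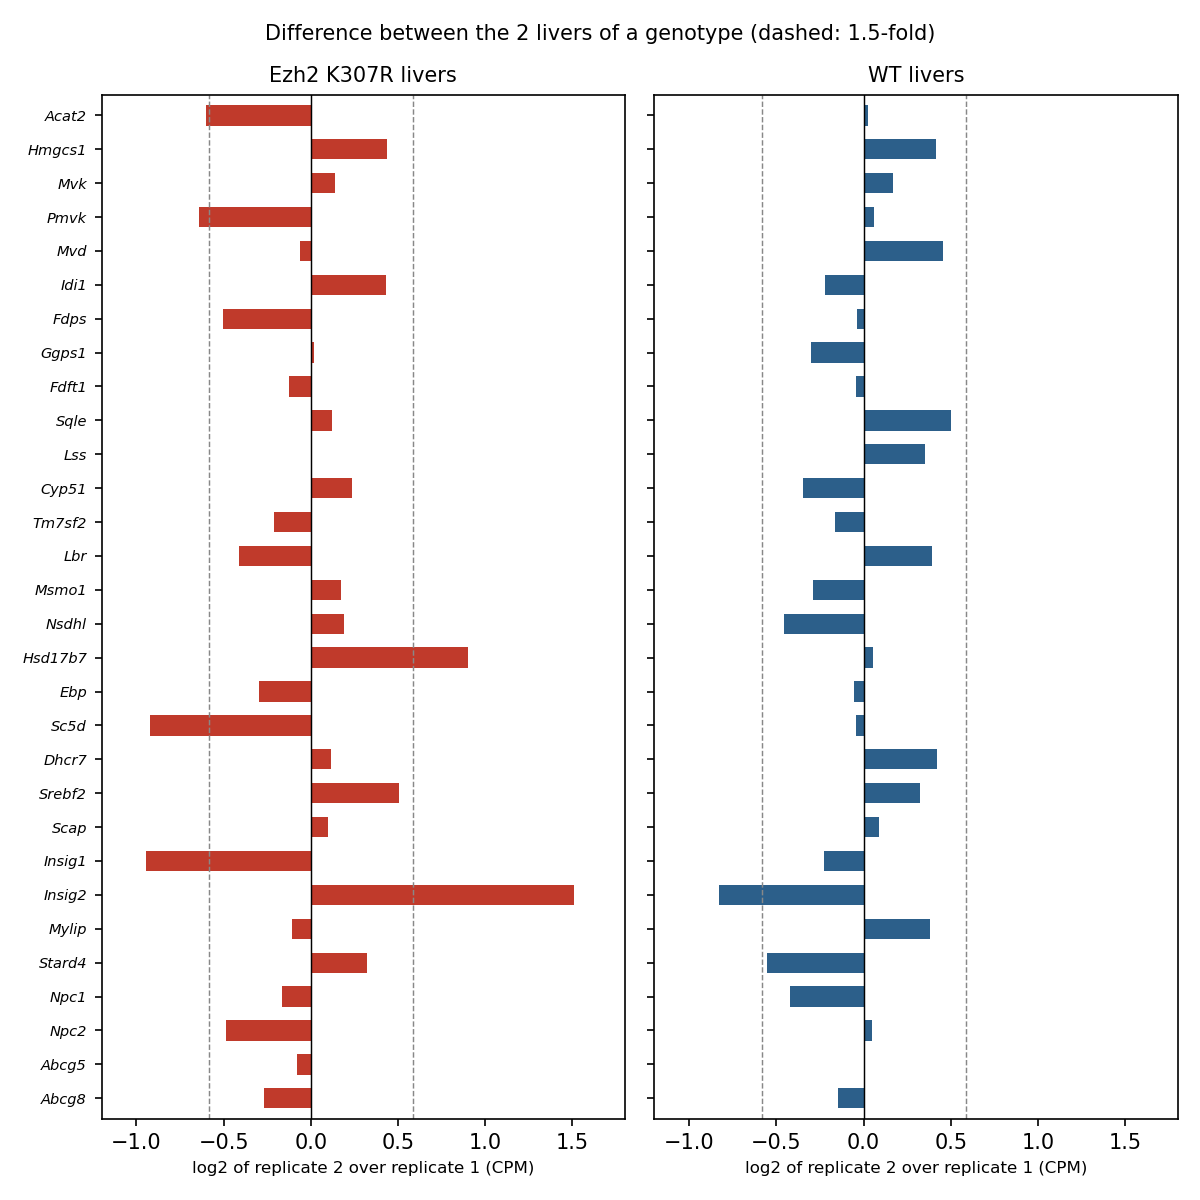
Log2 ratio of replicate 2 over replicate 1 for each gene, in CPM, for the Ezh2 K307R livers on the left and the WT livers on the right, with dashed lines at 1.5-fold. In the mutants 6 genes pass a dashed line, Insig2 and Hsd17b7 to the right and Acat2, Pmvk, Sc5d and Insig1 to the left, and in the WT only Insig2 does, to the left.

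Levels between genes were compared per length, in FPKM. Sc5d was highest, with 330.3 ± 138 FPKM in mutant and 392 ± 37.3 FPKM in WT livers (SD, n = 2 each). Fdps followed with 200.5 ± 45.6 FPKM in mutant and 234 ± 21.7 FPKM in WT livers, then Insig1 with 152 ± 65.5 FPKM in mutant and 155 ± 0.587 FPKM in WT livers, then Ebp with 159 ± 19.6 FPKM in mutant and 133 ± 11.6 FPKM in WT livers. In the mutant livers the SDs of Sc5d and Fdps met, as did those of Fdps, Insig1 and Ebp, while in the WT livers these 4 were in the same order without meeting. The lowest were Mylip with 1.95 ± 0.0495 FPKM in mutant and 1.07 ± 0.325 FPKM in WT livers, Ggps1 with 2.31 ± 0.0707 FPKM in mutant and 2.37 ± 0.0707 FPKM in WT livers and Lbr. Above these 3 among the enzymes came Hsd17b7 with 15.6 ± 6.94 FPKM in mutant and 9.89 ± 1.41 FPKM in WT livers, then Mvk with 16.1 ± 1.46 FPKM in mutant and 11.1 ± 2.19 FPKM in WT livers, then Lss with 9.30 ± 0.233 FPKM in mutant and 18.6 ± 5.28 FPKM in WT livers. Lss was ranked 24 of 30 over all livers. Its SDs did not reach across the genotypes, while in the mutants it lay below Mvk and in the WT above it.

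**Figure D5:**
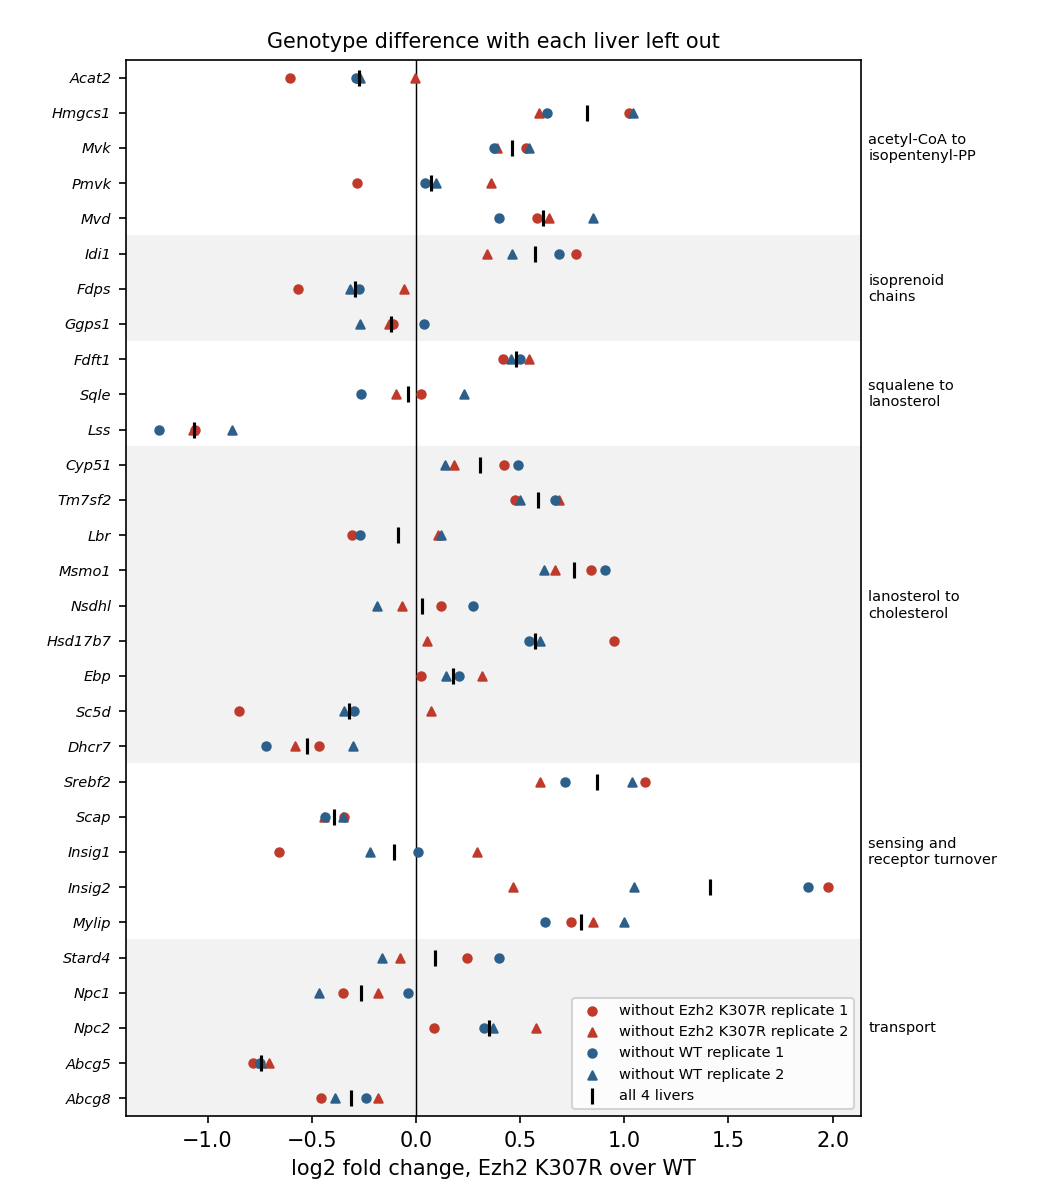
Log2 fold change of each gene, Ezh2 K307R over WT, with all 4 livers (black tick) and with each liver left out (red for a mutant liver, blue for a WT liver; circles replicate 1, triangles replicate 2). The points of Insig2 spread from 0.47 to 1.98, those of Abcg5 from -0.78 to -0.70 and those of Lss from -1.23 to -0.89.

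The rest of the pathway was read from 48 further genes of sterol regulation, esterification, efflux and transport, of which 45 were tested, 1 rose and 1 fell, beside backgrounds of 1.39% and 1.47%. The one that rose was Vldlr, the very low density lipoprotein receptor, with 20.2 and 12.1 CPM in the mutant livers, against 1.27 and 1.99 CPM in the WT livers (log2 fold change 3.29 ± 0.36 SE, adjusted p = 0.00539 in edgeR). It passed with any 1 liver left out, at log2 fold changes from 2.87 to 3.65. The one that fell was not called without mutant replicate 1 or without mutant replicate 2, and the list then had 0 lower. Below the threshold, Erlin1, a membrane protein of the endoplasmic reticulum's degradation machinery, had 52.7 and 43.2 CPM in the mutant livers, against 83.7 and 80.8 CPM in the WT livers (log2 fold change -0.78 ± 0.19 SE, adjusted p = 0.0819 in edgeR). Cyb5r3, a reductase that feeds electrons to cytochrome b5, had 545 and 472 CPM in the mutant livers, against 1017 and 969 CPM in the WT livers (log2 fold change -0.97 ± 0.24 SE, adjusted p = 0.0837 in edgeR). Lipa, the lysosomal acid lipase that frees cholesterol from its esters, had 296 and 309.5 CPM in the mutant livers, against 195 and 167 CPM in the WT livers (log2 fold change 0.74 ± 0.22 SE, adjusted p = 0.130 in edgeR). Cyp46a1, a cholesterol 24-hydroxylase, had 4.67 and 2.15 CPM in the mutant livers, against 0.694 and 1.09 CPM in the WT livers (log2 fold change 1.91 ± 0.50 SE, adjusted p = 0.10 in edgeR). The list's median log2 fold change was 0.1, beside 0.01 for all genes tested.

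Fatty acid synthesis is the arm driven mainly by SREBP1c, a relative of SREBP2. Of 17 genes in this list 4 fell and 0 rose, where 1.47% of all genes were called lower and 1.39% higher. At an unadjusted p under 0.05, 10 were lower and 1 higher, where 8.31% and 8.5% of all genes were, and DESeq2 and limma-voom likewise had 0 higher. The median log2 fold change was -0.78, beside 0.08 for the 30 cholesterol genes. Both lists were chosen with earlier results of these data known, and the difference between them was not tested. Acaca, the cytosolic acetyl-CoA carboxylase, had 135 and 108 CPM in the mutant livers, against 394 and 388 CPM in the WT livers (log2 fold change -1.69 ± 0.23 SE, adjusted p = 0.0127 in edgeR). Acly, which supplies both arms with acetyl-CoA, had 409.9 and 188 CPM in the mutant livers, against 1283 and 1154 CPM in the WT livers (log2 fold change -2.03 ± 0.38 SE, adjusted p = 0.0377 in edgeR). Acacb, the mitochondrial carboxylase (-1.39), and the elongase gene Elovl6 (-1.85) fell too. Without mutant replicate 2, 0 of the 4 were called, with adjusted p of 0.0548 for Acaca, 0.0869 for Acly, 0.128 for Acacb and 0.148 for Elovl6, and Acly was at -2.7 without mutant replicate 1.

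RefSeq's promoter table held 32 windows for 25 of the 30 members. The SREBP motif TCACNCCAC was in 1 of these windows (3.12%) and in 1.24% of all 32851 windows. CCAAT, the NF-Y motif, was in 23 member windows (71.9%) against 37.4% of all windows, and the SP1 motif GGGCGG in 24 (75.0%) against 35.7%. The E-box CACGTG was in 6 member windows, of Dhcr7, Hsd17b7, Insig1, Sc5d and Scap, (18.8%), against 7.15% of all windows. All motifs were searched on both strands, and no matches to different motifs overlapped in the member windows. The set of all windows was limited neither to genes tested here nor to windows of like base content, and the differences in share were not tested. Windows of 1 gene share its locus, and those of Abcg5 and Abcg8 share 209 bases. Some sites are thus counted in more than 1 window, such as the E-box in both Scap windows. A match is a string of letters and not a measured site. Only exact matches to each motif's letters were counted, so a window without a match may still hold a site.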

How the data were processed

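RNA of 4 liver samples was extracted with TRIzol and sequenced, per the labels' protocols. The authors deposited, per the file headers, an expected count and an FPKM value for each RefSeq transcript of each liver. RSEM, HISAT, Bowtie2 and mm10 are named in the submitters' processing notes, with no word on strand. RSEM divides reads among transcripts that share sequence, so isoforms, close copies and overlapping genes carry its estimate. Deposited expected counts were summed per Entrez gene and rounded, giving 17543 genes, of which 41 had no symbol and held at most 0.0428% of a library. Genes with enough reads (filterByExpr, 12837) were scaled by TMM and tested with edgeR 4.0.16 (quasi-likelihood F test, genotype alone, all 4 livers, Benjamini-Hochberg adjustment over these genes, threshold 0.05) in R 4.3.3. With 18602928 to 20044832 reads a library and 2 livers a genotype, the 2 residual degrees of freedom limit the precision. CPM are edgeR's TMM-scaled values; deposited FPKM of a gene's transcripts were summed and used for levels between genes. DESeq2 1.42.0, limma 3.58.1, other scalings and filters, log2(FPKM + 1) or + 0.1, a replicate block and leaving out each liver were the alternatives. The fit was also run on simulated counts with known changes larger than those of the members. That run gives no measure of power or error at the members' fold changes. Promoter windows are RefSeq's on GRCm38.p6, the sequence of mm10. All 30 members are named; beyond them, called genes and those next in p of 2 further lists. The members and lists were chosen with earlier results of these data known, and some genes of the further lists are not reported here by name.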

Additional observations from a re-analysis of the deposited data

How the results depend on the processing

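Counts of calls moved most. All genes called higher numbered 378 with DESeq2, 410 with no filter on low counts, 94 on log2(FPKM + 1), 91 on log2(FPKM + 0.1), 0 on unfiltered FPKM and 117 to 327 with a liver left out, beside 178. All genes called lower numbered 386, 419, 69, 70, 0 and 94 to 393 in the same order, beside 189. Total-count scaling gave 188 higher and 124 lower. Members called higher numbered 3 with DESeq2, 2 with no filter (Srebf2 and Insig2) and 0 to 1 with a liver left out. Members called lower numbered 2 with DESeq2, 0 with total-count scaling and on all 3 FPKM scales, and 0 to 1 with a liver left out. Of the other cholesterol genes, DESeq2 called 3 higher and 3 lower, no filter 2 higher and 3 lower, the FPKM scales 0 and 0, total-count scaling and the replicate block 0 lower, and leaving out a liver 1 to 2 higher and 0 to 2 lower. Fatty acid genes called lower numbered 8 with DESeq2, 1, 1 and 0 on the FPKM scales and 0 to 7 with a liver left out, and those called higher 0 to 0.

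The adjusted p of Lss was 0.0758 with total-count scaling, 0.124 on log2(FPKM + 1), 0.121 on log2(FPKM + 0.1) and 0.292 unfiltered, with the same direction throughout. Members near 0 turned direction under some settings. Sqle was at 0.0202 with total-count scaling, 0.0622 on log2(FPKM + 1) with and without the filter and 0.0649 on log2(FPKM + 0.1). With a liver left out, Sqle ran from -0.27 to 0.23, Pmvk from -0.28 to 0.36, Ggps1 from -0.27 to 0.0364, Lbr from -0.31 to 0.12, Nsdhl from -0.19 to 0.27, Sc5d from -0.85 to 0.0709, Insig1 from -0.65 to 0.29 and Stard4 from -0.16 to 0.40. The other 22 members kept their direction. The cause was not tested. RLE scaling, limma-voom and a minimum of 1 CPM changed no member's call or direction.

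The labels do not say whether same-numbered livers were paired. Deviations of same-numbered livers from their genotype's mean correlated at -0.0027 across genes. That value shows no broad shared shift and cannot settle whether the livers were paired. With replicate number as a block 166 genes were called higher and 181 lower, and no member changed call or direction. With 2 livers a genotype, 1 liver can decide a call, and a lone liver is then assumed to vary as the other genotype does.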
